A study of Mus musculus with 4 samples.

Results

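The genes described here make sterols and fatty acids. They were chosen by name: 18 enzymes of the sterol arm, 9 enzymes of the fatty acid arm and 6 genes that control or serve them, 33 in all. A gene was read where a probe set carried its symbol alone in the platform annotation, which held for 32 of the 33, among 19938 genes measured this way. Acat2, the cytosolic thiolase that opens the sterol arm, had no such probe set. Intensities were measured on Affymetrix Mouse Gene ST arrays, 1 array for each of 4 groups: zymogenic cells of MIST1 knockout mice, zymogenic cells of wild-type mice, mucous neck cells of MIST1 knockout mice and mucous neck cells of wild-type mice. All groups came from adult stomach on a C57BL/6 background, by laser capture from frozen sections, with zymogenic cells picked below the zone stained by the lectin GS-II and without a parietal cell outline. The knockout mice, written Mist1-/- in the design text with no cell type or promoter named, are called MIST1-null below. RNA was pooled over dissections and animals to about 100 ng before amplification, and the design text names 5 MIST1-null and 4 wild-type mice with 2 caps per mouse, without assigning animals to pools. Since every group is a single array, the spread between samples is unknown and no test was possible.

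Cholesterol is built from acetyl-CoA through mevalonate, farnesyl diphosphate and squalene, and fatty acids are built from the same acetyl-CoA by carboxylation, chain building, elongation and desaturation. Both arms are driven by the SREBP transcription factors, which are carried from the endoplasmic reticulum by SCAP when sterols are scarce and held there by the INSIG proteins when they are plentiful. SREBP-2, from Srebf2, is best known for the sterol genes, and SREBP-1c, from Srebf1, for the fatty acid genes. Zymogenic cells of the gastric gland hold a large endoplasmic reticulum and many granules, whose membranes need both kinds of lipid, and MIST1 (gene Bhlha15) is a basic helix-loop-helix factor of such secretory cells.

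A promoter window, the 250 bases before a start site in RefSeq (GRCm38.p6), was at hand for 26 of the 33 genes: 15 of the sterol arm, 6 of the fatty acid arm and 5 of the controlling genes. Fdps, Fdft1, Sqle, Stard4, Scd1, Scd2 and Fads1 are named here without one. Both strands were searched for CCAAT, the box bound by NF-Y, a known partner of SREBP, for CACNCCAC, a core of the sterol regulatory element, and for CATATG, an E-box known to be bound by MIST1. A CCAAT box stood in a window of 14 of 15 sterol, 4 of 5 controlling and 2 of 6 fatty acid genes (Fasn and Me1). The share over 17491 protein-coding genes was 39.5%, near that of the fatty acid genes. Among genes with a single window the counts were 12 of 13 sterol and 1 of 5 fatty acid genes, against 36.9% of 14730. CACNCCAC was found before Hmgcs1, Acat2 and Insig1 and in 6.12% of protein-coding genes, and CATATG before Mvd and Insig1 and in 3.39%. CATATG reads the same on both strands and was counted once. These are matches of letters and show no binding.

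**Figure D1:**
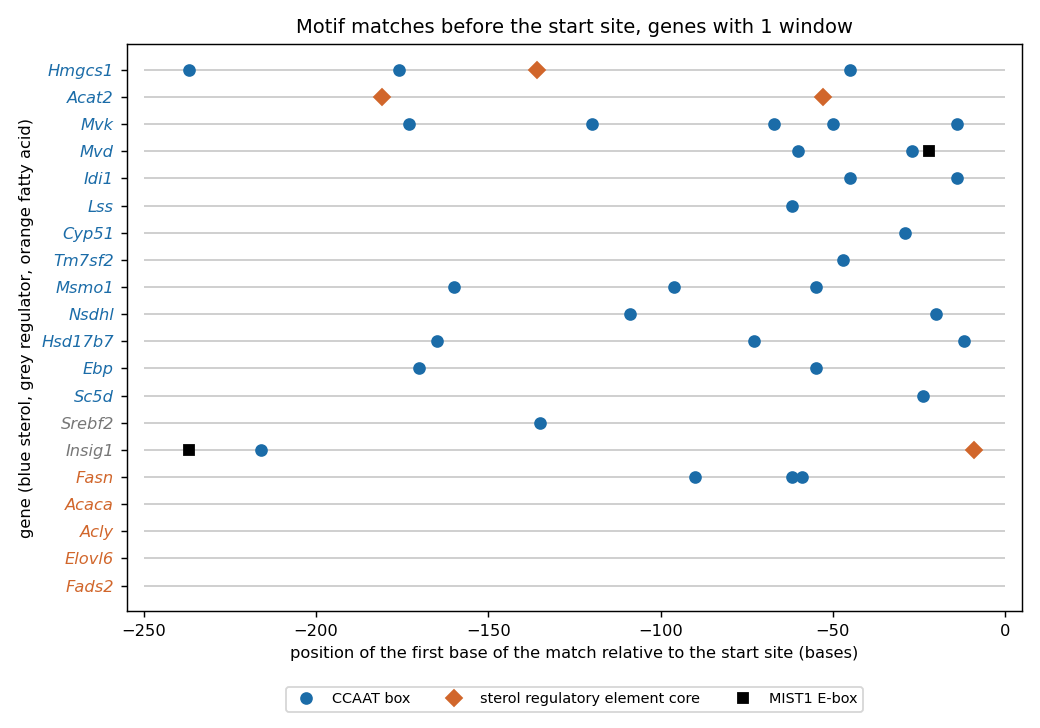
Each line is the window before the start site of 1 gene with a single window, with position in bases on the horizontal axis and a symbol at the first base of each motif match. CCAAT boxes (circles) stand on 12 of the 13 sterol lines, while Acaca, Acly, Elovl6 and Fads2 carry no symbol.

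The windows of 6 genes from both arms are printed as examples, all of genes whose intensities are described further on. Capitals mark CCAAT or its complement ATTGG, and in Hmgcs1 also the sterol element core, and all sequences run 5′ to 3′ on the gene's strand. Hmgcs1 is from chr13:119690101-119690350 (plus strand), Idi1 from chr13:8885356-8885605 (plus strand), Msmo1 from chr8:64733579-64733828 (minus strand), Sc5d from chr9:42264301-42264550 (minus strand), Fasn from chr11:120824548-120824797 (minus strand) and Acly from chr11:100528001-100528250 (minus strand).
Hmgcs1: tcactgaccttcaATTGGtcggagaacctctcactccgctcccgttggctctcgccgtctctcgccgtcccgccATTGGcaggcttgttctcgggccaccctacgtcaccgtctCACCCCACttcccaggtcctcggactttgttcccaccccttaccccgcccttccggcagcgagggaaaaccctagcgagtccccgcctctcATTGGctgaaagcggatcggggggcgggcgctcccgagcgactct
Idi1: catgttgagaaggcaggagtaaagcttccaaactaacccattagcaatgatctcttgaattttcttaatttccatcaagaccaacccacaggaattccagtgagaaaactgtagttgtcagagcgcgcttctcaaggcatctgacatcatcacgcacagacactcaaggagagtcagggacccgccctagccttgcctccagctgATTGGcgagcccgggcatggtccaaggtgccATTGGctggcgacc
Msmo1: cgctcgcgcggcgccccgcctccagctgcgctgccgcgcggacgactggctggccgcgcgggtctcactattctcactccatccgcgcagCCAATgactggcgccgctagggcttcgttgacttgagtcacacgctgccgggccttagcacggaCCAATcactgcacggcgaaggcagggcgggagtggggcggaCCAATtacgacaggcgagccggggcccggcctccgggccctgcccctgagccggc
Sc5d: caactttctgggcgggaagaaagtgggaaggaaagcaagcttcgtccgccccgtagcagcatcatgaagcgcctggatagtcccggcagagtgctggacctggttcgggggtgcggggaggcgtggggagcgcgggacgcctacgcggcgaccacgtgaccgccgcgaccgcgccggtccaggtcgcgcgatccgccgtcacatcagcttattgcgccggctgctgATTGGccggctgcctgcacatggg
Fasn: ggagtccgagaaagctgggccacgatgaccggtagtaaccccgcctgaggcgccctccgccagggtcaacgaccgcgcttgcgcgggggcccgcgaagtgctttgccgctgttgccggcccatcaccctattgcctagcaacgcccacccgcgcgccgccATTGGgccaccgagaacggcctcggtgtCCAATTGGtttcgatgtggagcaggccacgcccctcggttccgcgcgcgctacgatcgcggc
Acly: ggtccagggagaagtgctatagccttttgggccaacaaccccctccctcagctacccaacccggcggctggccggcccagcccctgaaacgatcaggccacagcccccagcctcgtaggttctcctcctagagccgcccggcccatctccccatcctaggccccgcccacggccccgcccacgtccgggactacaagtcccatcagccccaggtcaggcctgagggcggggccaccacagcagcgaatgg
Hmgcs1 and Msmo1 hold 3 boxes each, Idi1 holds 2 and Sc5d holds 1. Fasn holds 3, of which a pair on opposite strands overlaps by 2 bases, and Acly holds 0.

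The arrays were first set against their labels. Intensity medians over all probe sets lay between 37.9 and 40.9. Bhlha15 read 22.0 in MIST1-null against 149.8 in wild-type zymogenic cells, and 20.2 in MIST1-null against 59.7 in wild-type neck cells. Mucous neck markers summed to 688.9 in MIST1-null zymogenic, 1839.2 in wild-type zymogenic, 11844.6 in MIST1-null neck and 9615.8 in wild-type neck cells. Zymogenic markers summed to 24711.5, 23222.4, 12306.1 and 12935.8 in the same order, so for both cell types the sum was higher in the cells named. Parietal markers, from the acid-secreting cells between them, summed to 7996.5, 4541.1, 9317.9 and 8588.9 in that order, lowest in wild-type zymogenic cells. Endocrine markers (12745.4, 8694.8, 3654.9 and 5723.3) and fibroblast and smooth muscle markers (1337.8, 1195.1, 310.0 and 454.6) were higher in zymogenic cells. Immune markers (260.9, 292.1, 62.3 and 211.9) and surface mucous markers (3463.5, 3347.4, 1944.0 and 2108.3) were too. No measured marker was listed at 0. In each genotype, 5 of 6 mucous neck markers were lower and 4 of 4 zymogenic markers higher in zymogenic than in neck cells. The mucous neck marker Aqp5 went the other way, higher in zymogenic cells by 0.56 in MIST1-null and 0.54 in wild-type mice. The zymogenic marker Pgc differed by only 0.29 in MIST1-null and 0.20 in wild-type mice. Bhlha15, also counted among the 4 zymogenic markers, is the gene knocked out in MIST1-null mice. Its difference of 0.12 there cannot show cell type.

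Differences are given as log2 values, MIST1-null minus wild-type or zymogenic minus neck, and a gene was counted at 2-fold or more. A level was set at a mean log2 value of 5.45 over the 4 arrays, the median of all 1-gene probe sets and equal to an intensity of 43.7. It is a rule of size, not a measured background. It was reached by 21 of the 32 measured genes: 12 of 17 sterol enzymes, all 6 controlling genes and only 3 of 9 fatty acid enzymes. Under it were Pmvk, Lss, Tm7sf2, Hsd17b7 and Dhcr7 of the sterol arm and Fasn, Scd1, Elovl6, Me1, Fads1 and Fads2 of the fatty acid arm. Of all 19938 genes, 9791 reached it. Intensities of different probe sets are not compared with each other, since probes differ in brightness.

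**Figure D2:**
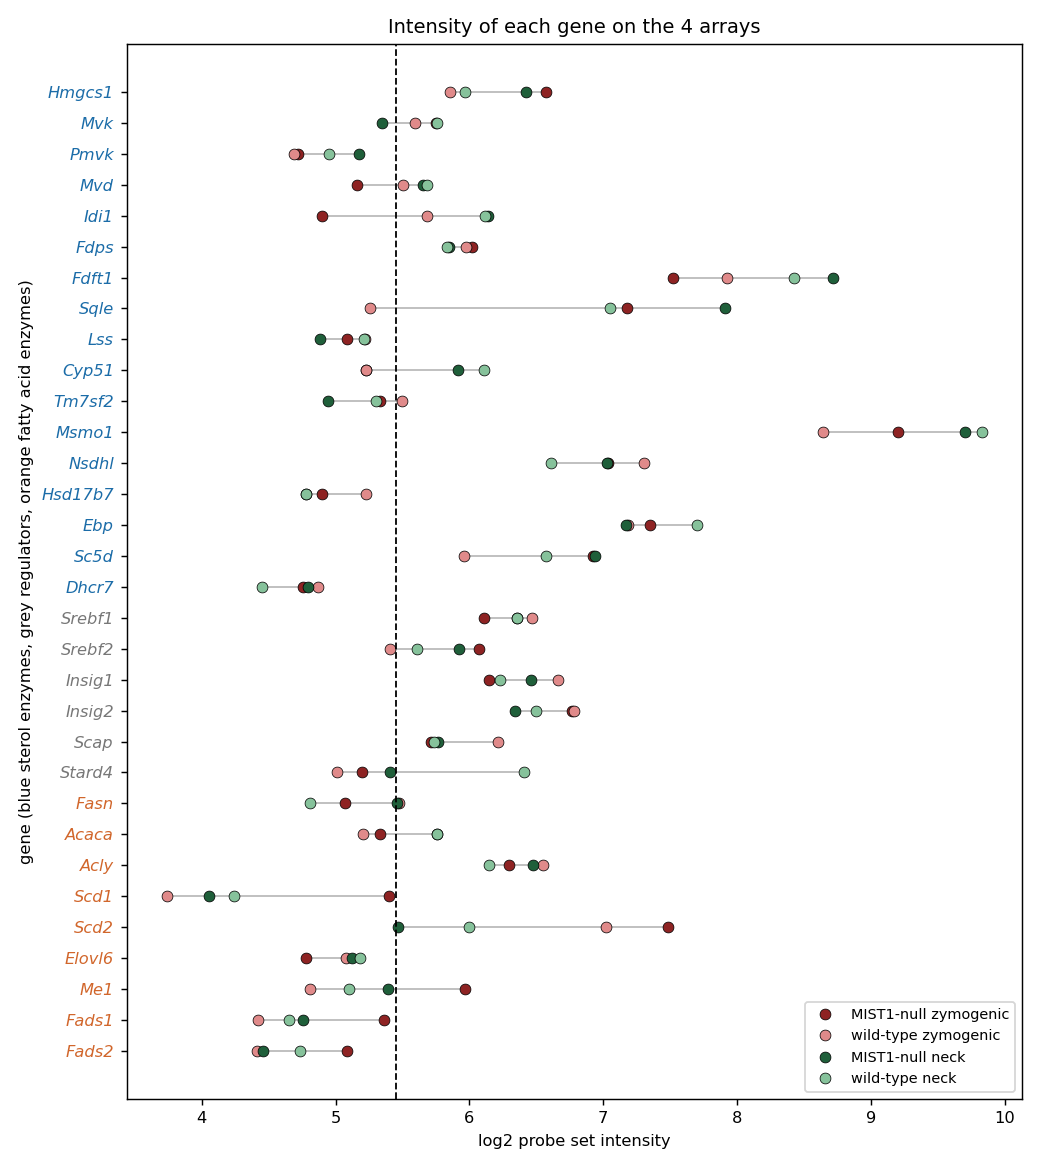
Each row is 1 gene and each point 1 array, on a log2 intensity axis, with the grey line spanning the 4 arrays and the dashed line at the level of 5.45. Sqle spans 38.3 to 240.1 in intensity, and most fatty acid enzymes lie left of the dashed line.

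In zymogenic cells, the sterol arm was split between genes higher and lower in MIST1-null mice, and Sqle was the furthest apart. Of the 12 enzymes at the level, 8 were above 0 and 4 below, with a median of 0.10, and 44.8% of all genes at the level were below 0, with a median of 0.07. A single member, Sqle, was at least 2-fold higher and 0 were 2-fold lower, against 4.73% of genes higher and 3.78% lower. Sqle, squalene epoxidase, a rate-limiting step of the arm, read 145.0 in MIST1-null zymogenic and 38.3 in wild-type zymogenic cells. In neck cells it read 240.1 in MIST1-null and 132.6 in wild-type mice. The wild-type zymogenic array was thus the low one, under the level, and Sqle was higher in the MIST1-null array of both cell types, by 1.92 in zymogenic and 0.86 in neck cells. The zymogenic difference was 1.33 with 32 added to each intensity, a step that shrinks differences between dim values. Parietal markers were low on the same wild-type zymogenic array, with 8 of 8 above 0 for MIST1-null minus wild-type zymogenic cells, a median of 0.89 and Esrrg the furthest at 1.56. Their part in the sterol values was not tested.

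The enzymes that lead to farnesyl diphosphate did not move as 1 block. Hmgcs1, which makes HMG-CoA, read 95.3 in MIST1-null against 58.0 in wild-type zymogenic cells, and 85.9 in MIST1-null against 62.4 in wild-type neck cells, or 0.72 and 0.46. The mevalonate kinase Mvk differed by 0.16 and -0.41 and the decarboxylase Mvd by -0.34 and -0.03 in zymogenic and neck cells. Idi1, which isomerises the isoprene unit, read 29.8 in MIST1-null against 51.5 in wild-type zymogenic cells, and 70.5 in MIST1-null against 69.5 in wild-type neck cells. Its zymogenic difference of -0.79 was the lowest of the 12, but its second, dimmer probe set went the other way, at 23.6 in MIST1-null against 10.7 in wild-type zymogenic cells, or 1.14. The sign for Idi1 in zymogenic cells therefore depends on the probe set. Fdps, which makes farnesyl diphosphate, differed by 0.05 and 0.02.

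Among the enzymes after farnesyl diphosphate, Fdft1, squalene synthase, read 184.1 in MIST1-null against 243.0 in wild-type zymogenic cells, and 421.5 in MIST1-null against 343.3 in wild-type neck cells. These differences, -0.40 and 0.30, had opposite signs, and the second probe set of Fdft1 gave 0.44 and 0.03. Msmo1, which oxidises the methyl groups of the sterol ring, read 590.0 in MIST1-null against 399.0 in wild-type zymogenic cells, and 835.0 in MIST1-null against 909.1 in wild-type neck cells, or 0.56 and -0.12. Sc5d, a late sterol desaturase, read 121.3 in MIST1-null against 62.3 in wild-type zymogenic cells, and 122.9 in MIST1-null against 95.2 in wild-type neck cells, or 0.96 and 0.37. Cyp51, which removes a methyl group of lanosterol, read 37.6 and 37.4 in MIST1-null and wild-type zymogenic cells. The isomerase Ebp read 163.0 in MIST1-null against 145.5 in wild-type zymogenic cells, and 144.3 in MIST1-null against 207.6 in wild-type neck cells, or 0.16 and -0.52. Nsdhl, a dehydrogenase that acts with Msmo1, differed by -0.27 and 0.42.

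Sterol enzymes above 0 in both cell types were Hmgcs1, Fdps, Sqle and Sc5d, 4 of 12, where 30.6% of genes were, and Mvd was below 0 in both, 1 of 12, where 24.2% of genes were. The 2 genotype comparisons share no array. The 5 sterol enzymes under the level differed little in zymogenic cells, from -0.34 for Hsd17b7 to 0.03 for Pmvk. In neck cells, 5 of the 12 sterol enzymes were below 0, against 48.8% of genes, with a median of 0.02, against 0.01 over all genes. In neck cells 0 of the 21 genes at the level were at least 2-fold higher, against 1.27%, and 1 was 2-fold lower, against 1.6%.

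The sensors and carriers of the pathway, with 1 exception, differed by less than 2-fold between genotypes. In zymogenic cells they ranged from -0.52 to 0.66. Srebf2, the gene of SREBP-2, read 67.2 in MIST1-null against 42.5 in wild-type zymogenic cells, and 60.6 in MIST1-null against 48.9 in wild-type neck cells, or 0.66 and 0.31. Srebf1 went the other way in zymogenic cells, at 69.0 in MIST1-null against 88.4 in wild-type, and read 81.9 and 81.7 in MIST1-null and wild-type neck cells. Insig1, an SREBP target as well as its brake, read 70.8 in MIST1-null against 101.3 in wild-type zymogenic cells, and 88.2 in MIST1-null against 75.04 in wild-type neck cells, or -0.52 and 0.23. Scap, the escort of SREBP, read 52.5 in MIST1-null against 74.3 in wild-type zymogenic cells, and 54.3 in MIST1-null against 53.4 in wild-type neck cells. Insig2 read 108.7 in MIST1-null against 109.8 in wild-type zymogenic cells, and 81.0 in MIST1-null against 90.2 in wild-type neck cells, or -0.01 and -0.15. No sensor gene reached 2-fold.

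The exception was Stard4, a carrier that moves cholesterol between membranes. It read 36.8 in MIST1-null zymogenic, 32.2 in wild-type zymogenic, 42.4 in MIST1-null neck and 85.1 in wild-type neck cells. The wild-type neck array stood above the other three, and the neck difference lay at the 2-fold line and was -0.65 with 32 added to each intensity. Endocrine markers were lower in MIST1-null neck cells too, with 5 of 5 below 0, as were 7 of 7 fibroblast and smooth muscle and 5 of 5 measured adipocyte markers. Their part in the Stard4 value was not tested.

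In the fatty acid arm, the genes that differed most between genotypes were dim ones of desaturation and NADPH supply, and they were higher in MIST1-null zymogenic cells. Scd1, a stearoyl-CoA desaturase, read 42.1 in MIST1-null against 13.4 in wild-type zymogenic cells, and 16.6 in MIST1-null against 18.9 in wild-type neck cells. Its MIST1-null zymogenic value stood above the other three arrays. Me1, malic enzyme, which supplies NADPH, read 62.5 in MIST1-null against 28.0 in wild-type zymogenic cells, and 42.1 in MIST1-null against 34.4 in wild-type neck cells. Its second probe set read 59.5 in MIST1-null against 14.6 in wild-type zymogenic cells, the same direction.

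The front-end desaturases of polyunsaturated fatty acids followed this order in zymogenic cells. Fads1 read 41.2 in MIST1-null against 21.4 in wild-type zymogenic cells, and 27.1 in MIST1-null against 25.1 in wild-type neck cells. Fads2 read 33.9 in MIST1-null against 21.3 in wild-type zymogenic cells, and 22.0 in MIST1-null against 26.7 in wild-type neck cells. The zymogenic differences were 1.65 for Scd1, 1.16 for Me1, 0.94 for Fads1 and 0.67 for Fads2. All 4 genes are under the level, where differences are loose. With 32 added they were 0.71, 0.65, 0.45 and 0.31. Scd1 and Me1 were the 2 of 11 genes under the level at least 2-fold higher, against 3.74% of all genes under it.

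Of the enzymes that build the chain, Fasn, Acly and Elovl6 were lower in MIST1-null zymogenic cells. The size of the Acaca difference depended on the probe set. Fasn, fatty acid synthase, read 33.6 in MIST1-null against 44.5 in wild-type zymogenic cells, and 44.0 in MIST1-null against 28.0 in wild-type neck cells, opposite in sign at -0.41 and 0.65. Acly, which supplies cytosolic acetyl-CoA, read 78.6 in MIST1-null against 93.6 in wild-type zymogenic cells, and 89.2 in MIST1-null against 70.8 in wild-type neck cells, or -0.25 and 0.33. The elongase Elovl6 differed by -0.30 and -0.06. Acaca, acetyl-CoA carboxylase, read 40.2 in MIST1-null against 36.8 in wild-type zymogenic cells, and 54.1 in MIST1-null against 54.2 in wild-type neck cells. Its dimmer probe set read 39.8 in MIST1-null against 8.67 in wild-type zymogenic cells, and 51.1 in MIST1-null against 13.6 in wild-type neck cells. The probe sets of Acaca thus disagree by more than 2-fold on the genotype difference in zymogenic cells.

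Over all 9 measured fatty acid enzymes, the MIST1-null zymogenic array was the highest of the 4 for 5, or 55.6%, where it was highest for 26.1% of all measured genes. Likewise, 5 of 9 had their minimum on the wild-type zymogenic array, or 55.6%, against 25.9% of all measured genes. Parietal markers also read higher in MIST1-null zymogenic cells, with 8 of 8 above 0 and a median of 0.89, and their part in these values was not tested. Adipocyte markers summed to 576.8 in MIST1-null against 775.6 in wild-type zymogenic cells and were below 0 in 5 of 5 measured genes. Their part was not tested either.

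**Figure D3:**
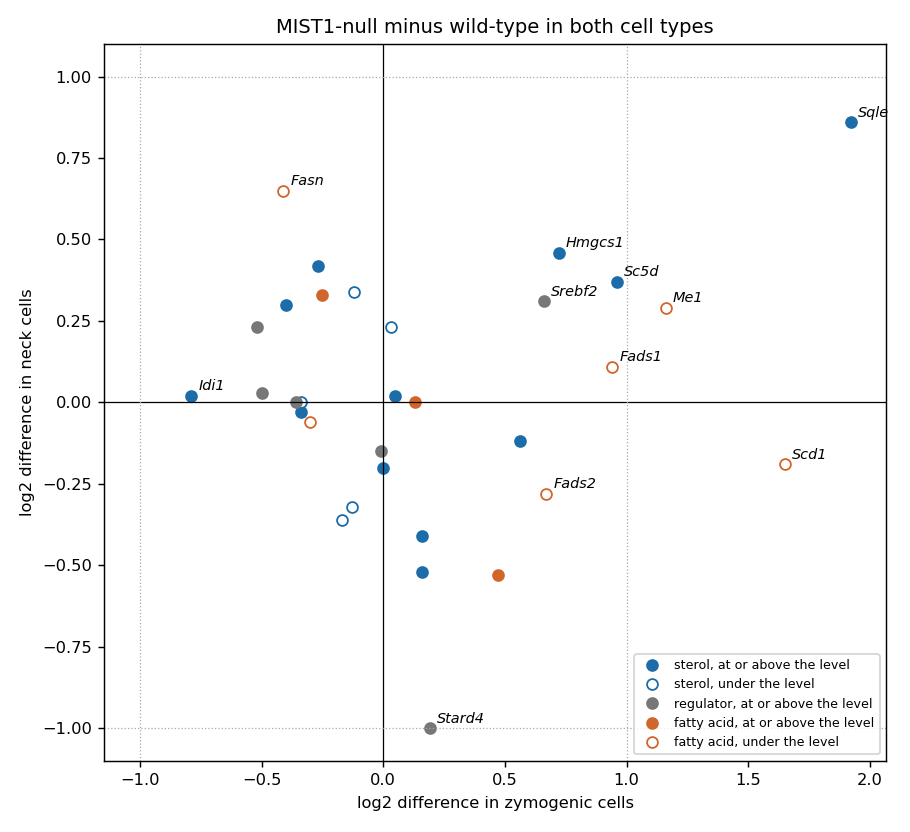
Each point is 1 gene, with the MIST1-null minus wild-type log2 difference in zymogenic cells on the horizontal axis and in neck cells on the vertical axis, filled where the gene is at the level and with dotted lines at 2-fold. Sqle stands at the upper right at 1.92 and 0.86, and Scd1, Me1, Fads1 and Fads2 lie right of 0 as open points.

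Between cell types, most sterol enzymes at the level were lower in zymogenic than in neck cells of wild-type mice, and a smaller share was in MIST1-null mice. In MIST1-null mice 7 of 12 enzymes at the level were below 0, against 47.3% of genes, with a median of -0.25, against 0.03 over all genes. Idi1 and Fdft1 were at least 2-fold lower, 2 of the 21 genes at the level, against 4.03% of all genes. In wild-type mice 10 of 12 were below 0, against 50.7%, with a median of -0.47, against -0.01. Sqle and Msmo1 were at least 2-fold lower, and with Stard4 this made 3 of the 21, against 6.35%. The same 7 were below 0 in both genotypes, namely Mvd, Idi1, Fdft1, Sqle, Cyp51, Msmo1 and Sc5d, and 29.1% of all genes were. Sc5d was barely so in MIST1-null mice, at -0.02, against -0.61 in wild-type mice. Fdps and Nsdhl were above 0 in both, 2 of 12, where 31.0% of all genes were. The 2 cell type comparisons share no array with each other, but each shares an array with each genotype comparison.

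Of these 7 genes, 5 act at or after squalene synthase, the step that commits farnesyl diphosphate to sterols, as do 7 of all 12 sterol enzymes at the level. Mvd and Idi1 act before it. For Sqle the difference was -0.73 in MIST1-null and -1.79 in wild-type mice, for Msmo1 -0.50 and -1.19, and for Fdft1 -1.20 and -0.50, with the second probe set of Fdft1 at -0.50 and -0.92. Idi1 differed by -1.24 and -0.43, and its second probe set by -0.59 and -2.34, so all 4 values for Idi1 were below 0. Cyp51 read 37.6 and 37.4 in MIST1-null and wild-type zymogenic cells, against 60.2 and 69.0 in MIST1-null and wild-type neck cells, and the zymogenic values lay below both neck values. Sqle did not separate in this way, since its MIST1-null zymogenic value of 145.0 exceeded its wild-type neck value of 132.6. For Msmo1, both zymogenic values, 590.0 and 399.0, lay below both neck values, 835.0 and 909.1.

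Nsdhl read 131.3 in MIST1-null and 158.2 in wild-type zymogenic cells, against 130.8 in MIST1-null and 97.5 in wild-type neck cells, or 0.01 in MIST1-null and 0.70 in wild-type mice. Hmgcs1, Mvk and Ebp were at 0.15, 0.40 and 0.18 in MIST1-null mice and at -0.11, -0.16 and -0.51 in wild-type mice. Of the sterol enzymes under the level, Pmvk was below 0 in both genotypes and Lss, Tm7sf2 and Hsd17b7 were above 0 in both. Dhcr7, the last reductase of the pathway, differed by -0.04 and 0.42. Over all 17 measured sterol enzymes 9 were below 0 in MIST1-null mice, with a median of -0.02, and 11 in wild-type mice, with a median of -0.18. Of all 19938 measured genes, 9080 were below 0 in MIST1-null and 9171 in wild-type mice, with a median of 0.05 in each.

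Markers of other cells moved with cell type as well. In MIST1-null mice the parietal marker median was -0.20 for zymogenic minus neck, with 5 of 8 below 0, beside the sterol median of -0.25. In wild-type mice parietal markers were lower in zymogenic cells in 8 of 8 genes, with a median of -1.07, beside the sterol median of -0.47. Endocrine and fibroblast and smooth muscle markers were higher in zymogenic cells of both genotypes. Their part in the sterol values was not tested. In pooled dissected tissue, fewer cells of a type and less RNA per cell cannot be told apart.

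Scd2 was the clearest cell type difference of the fatty acid arm. It ran opposite to the 7 sterol enzymes below 0 in both genotypes and in the direction of Fdps and Nsdhl. This stearoyl-CoA desaturase, known as the main one of brain and of early life in the mouse, read 178.9 in MIST1-null and 129.5 in wild-type zymogenic cells, against 44.3 in MIST1-null and 63.8 in wild-type neck cells. Both zymogenic values lay above both neck values, and the differences were 2.01 in MIST1-null and 1.02 in wild-type mice. With 32 added they were 1.47 and 0.75. Scd2 was the single one of 21 genes at the level at least 2-fold higher in zymogenic cells, against 3.64% of genes in MIST1-null and 4.37% in wild-type mice. Its genotype differences, 0.47 in zymogenic and -0.53 in neck cells, were opposite in sign. Markers of other cells differed in the same comparisons. Endocrine markers were above 0 in 5 of 5 genes in each genotype, with medians of 3.42 in MIST1-null and 1.46 in wild-type mice, and fibroblast and smooth muscle markers in 7 of 7, with medians of 2.40 and 1.52. Adipocyte markers summed to 576.8 in zymogenic against 436.3 in neck cells of MIST1-null mice, with 3 of 5 measured genes above 0, and to 775.6 against 974.5 in wild-type mice, with 0 of 5 above 0. Their part in the Scd2 values was not tested.

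The rest of the fatty acid arm showed no shared cell type difference. Acaca was lower in zymogenic cells by -0.43 in MIST1-null and -0.56 in wild-type mice, and its second probe set by -0.36 and -0.65. Acly differed by -0.18 and 0.40 and Fasn by -0.39 and 0.67, with opposite signs in the genotypes. Scd1, Fads1, Fads2 and Me1, all under the level, were above 0 in MIST1-null mice, from 0.57 to 1.34, and below 0 in wild-type mice, from -0.23 to -0.50. These values use the same zymogenic arrays as the genotype differences of these genes, so they are not a separate pattern. Among the controlling genes, Insig2 was higher in zymogenic cells by 0.42 in MIST1-null and 0.28 in wild-type mice. Insig1 (-0.32 and 0.43), Srebf1 (-0.25 and 0.11), Srebf2 (0.15 and -0.20) and Scap (-0.05 and 0.48) had opposite signs in the genotypes. Stard4 was lower by -0.21 and -1.40.

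**Figure D4:**
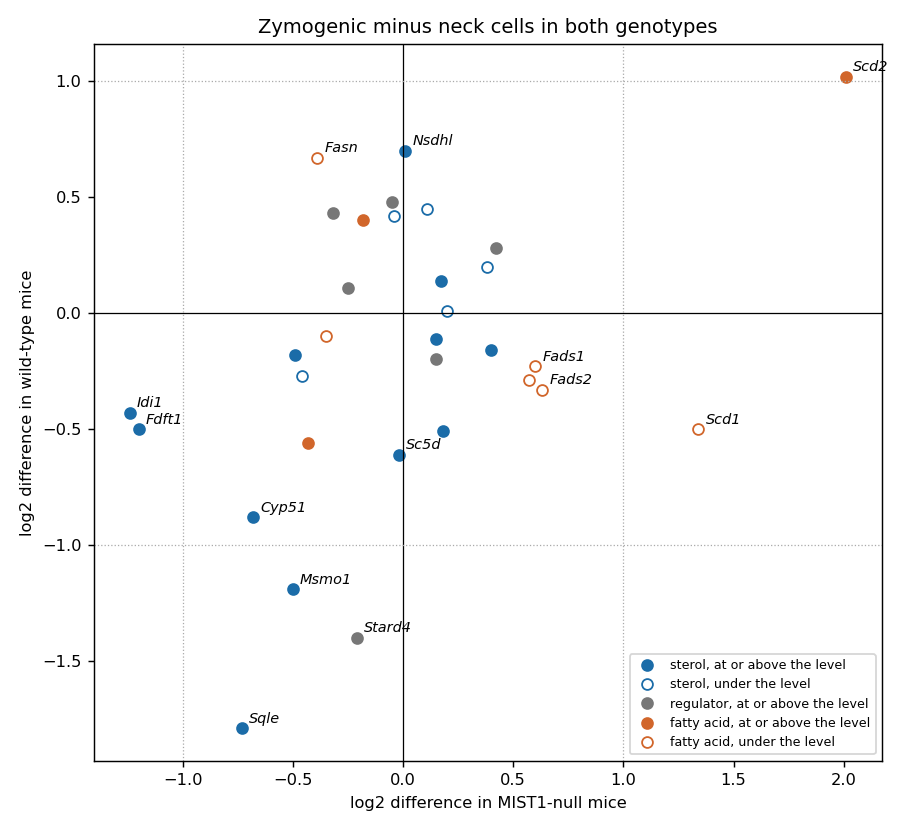
Each point is 1 gene, with the zymogenic minus neck log2 difference in MIST1-null mice on the horizontal axis and in wild-type mice on the vertical axis, filled where the gene is at the level. Idi1, Fdft1, Cyp51, Msmo1 and Sqle lie at the lower left and Scd2 stands furthest to the upper right, at 2.01 and 1.02.

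The medians of the arms were then set side by side, as sterol minus fatty acid. For zymogenic against neck cells of MIST1-null mice the value was -0.07 over genes at the level and -0.59 over all measured genes, where the fatty acid median was 0.57. In wild-type mice it was -0.87 at the level, where the fatty acid median of 0.40 rests on 3 genes, and 0.05 over all measured genes. For the genotype in zymogenic cells it was -0.02 at the level and -0.46 over all measured genes, with medians of 0.00 for the sterol and 0.47 for the fatty acid arm. In neck cells it was 0.02 either way. Counting all measured genes added 5 dim sterol and 6 dim fatty acid enzymes at once, and the sterol medians for cell type changed with it as well, from -0.25 at the level to -0.02 in MIST1-null mice and from -0.47 to -0.18 in wild-type mice. With fewer genes, the contrast for cell type in MIST1-null mice was -1.18 over the 8 genes at the 75th percentile of brightness or above and -0.93 over the 13 genes at the level when probe sets of a gene were averaged.

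Among genes at the level in the neighbouring lists, Erlin1 differed most between cell types. Erlin1, a membrane protein that with its partner Erlin2 is known from cultured cells to restrain SREBP and to serve sterol-triggered protein breakdown, read 129.9 in MIST1-null and 224.5 in wild-type zymogenic cells, against 1643.2 in MIST1-null and 1218.5 in wild-type neck cells. It was lower in zymogenic cells by -3.66 in MIST1-null and -2.44 in wild-type mice. Erlin2 read 119.8 in MIST1-null against 33.1 in wild-type zymogenic cells, or 1.86, and 57.1 and 59.4 in MIST1-null and wild-type neck cells. Of the 13 measured sterol handling genes, 7 reached the level, with medians of 0.13 and -0.02 for the genotype in zymogenic and neck cells. For cell type the median was 0.01 in MIST1-null mice, with 3 of 7 below 0, and -0.42 in wild-type mice, with 6 of 7 below 0. Npc2, which hands cholesterol out of the lysosome, differed between zymogenic and neck cells by 0.01 in MIST1-null and -1.21 in wild-type mice.

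Other sterol and isoprenoid enzymes at the level were below 0 for zymogenic minus neck in 5 of 6 in MIST1-null mice, with a median of -0.19, and in 6 of 6 in wild-type mice, with a median of -0.38. Among them was Lbr, a sterol reductase of the nuclear membrane, at -0.39 in MIST1-null and -1.30 in wild-type mice. Other lipid synthesis genes were below 0 in 13 of 21 in MIST1-null mice, with a median of -0.29, and in 17 of 21 in wild-type mice, with a median of -0.41. Over all genes at the level, 47.3% were below 0 in MIST1-null and 50.7% in wild-type mice. The elongase Elovl5 ran with Scd2, at 108.3 in MIST1-null and 76.8 in wild-type zymogenic cells against 27.8 in MIST1-null and 24.6 in wild-type neck cells. Pgd, an NADPH source like Me1, was higher in MIST1-null than wild-type zymogenic cells by 1.26, at 54.0 against 22.5. With 32 added the difference was 0.66, and in neck cells Pgd went the other way, at -0.46. Mid1ip1, a partner of acetyl-CoA carboxylase, was lower in MIST1-null than wild-type zymogenic cells by -1.52, at 88.2 against 252.5.

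Fatty acid oxidation, the opposing pathway, differed in 1 direction for most of its genes in 3 of the 4 comparisons. These 3 share arrays, since each cell type comparison uses a zymogenic array that the genotype comparison in zymogenic cells also uses. Their directions are therefore not separate observations. In MIST1-null mice 12 of 13 genes at the level were lower in zymogenic than neck cells, 2 of them at least 2-fold, against 4.03% of all genes, with a median of -0.42. In wild-type mice 13 of 13 were below 0, 9 at least 2-fold, against 6.35%, with a median of -1.14. In MIST1-null against wild-type zymogenic cells 11 of 13 were above 0, 4 at least 2-fold, against 4.73%, with a median of 0.71. In MIST1-null against wild-type neck cells 7 of 13 were above 0 and 0 reached 2-fold, with a median of 0.01. Cpt1a, which admits fatty acids to mitochondria, read 153.1 in MIST1-null against 50.9 in wild-type zymogenic cells. Parietal markers had medians of -0.20, -1.07, 0.89 and 0.03 in the same order of comparisons, and parietal cells are rich in mitochondria. Their part in the oxidation values was not tested.

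**Figure D5:**
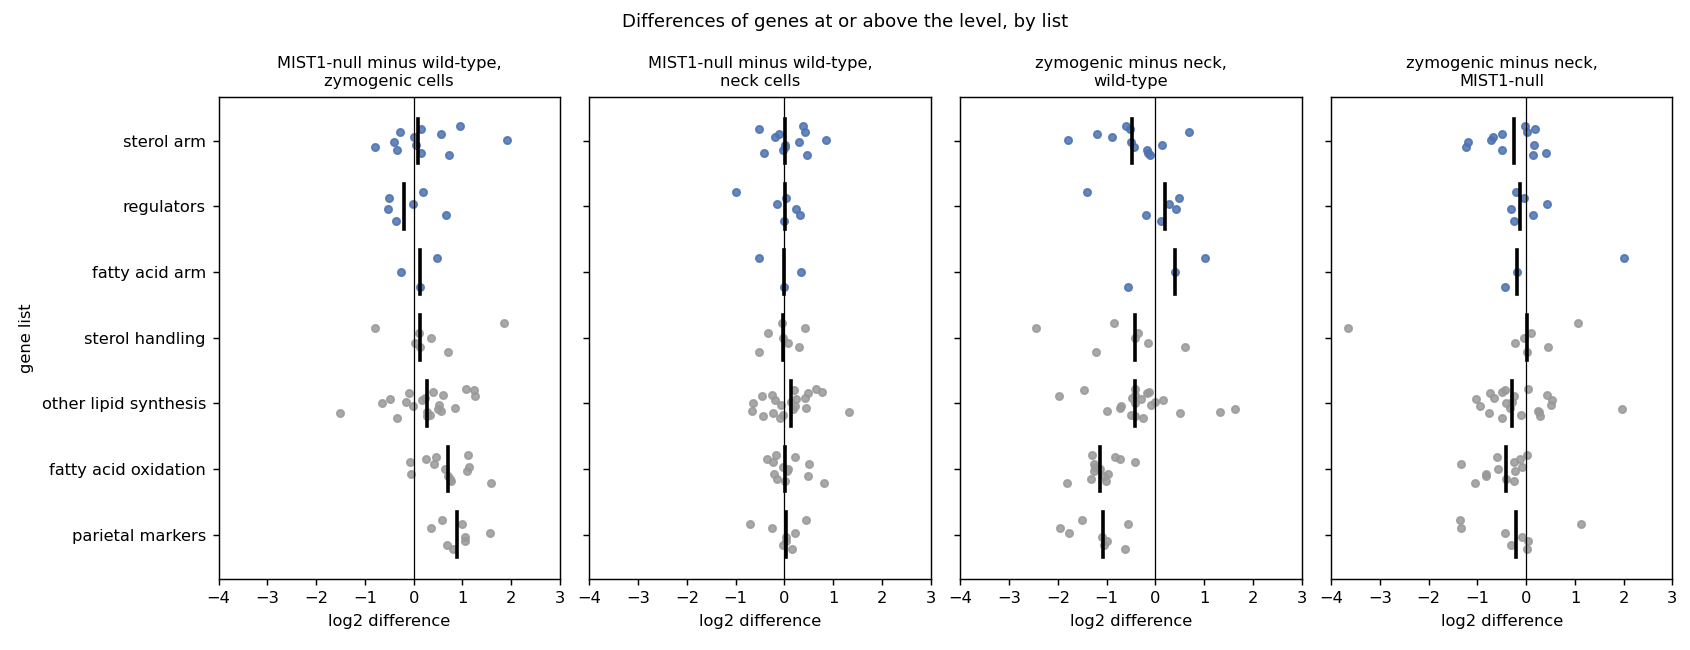
Each point is the log2 difference of 1 gene at the level, by gene list and in 4 panels by comparison, with a black bar at the list median. Fatty acid oxidation genes and parietal markers lie left of 0 in wild-type zymogenic against neck cells (medians -1.14 and -1.07), further left than the sterol arm at -0.47.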

How the data were processed

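The deposited table holds a probe set intensity on a linear scale, made by the authors in dChip per the series design text. The steps for background, probes and scaling were not given in the sources used here, and having so few arrays limits precision. Of 35512 probe sets, 21789 carried 1 gene in the platform annotation and 1621 several, and the latter were not used. The Entrez identifiers of all 32 measured genes gave the same symbol in RefSeq. Where 2 probe sets measured a gene, as for 4 of them, the brighter on average was used. Intensities under 1 were set to 1 before log2. Summaries were computed in Python 3.11.15 with numpy 2.4.6 and pandas 2.3.3 and tested on simulated data, and no model was fitted. Genes given array by array were those at 2-fold in any comparison, the brightest 3 of each arm and the 6 controlling genes; Hmgcs1, Sc5d, Cyp51, Nsdhl, Fasn, Scd1, Me1, Fads1 and Fads2 were added after their values were seen. From each neighbouring list up to 2 genes with the largest differences in a comparison were named. The genes, lists and the printed windows were chosen with earlier results of these data known.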

Additional observations from a re-analysis of the deposited data

Results flagged for a closer look

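Several genes had opposite differences of at least 0.3 in both cell types or both genotypes. These contrasts rest on 1 array per group and the difference between them was not tested. The share of all genes that meet this rule is not given here, so nothing particular to these genes can be read from it. For MIST1-null minus wild-type, Fdft1 was at -0.40 in zymogenic and 0.30 in neck cells, Fasn at -0.41 and 0.65, and Scd2 at 0.47 and -0.53. For zymogenic minus neck, Insig1 was at -0.32 in MIST1-null and 0.43 in wild-type mice, Fasn at -0.39 and 0.67, Scd1 at 1.34 and -0.50, and Fads2 at 0.63 and -0.33. Fasn, Scd1 and Fads2 are under the level. The second probe set of Fdft1 did not show its opposite signs, at 0.44 in zymogenic and 0.03 in neck cells for genotype.

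Second probe sets, left out of the medians and counts, showed genotype differences of 2-fold or more for 3 of the 4 genes that had one. The share over second probe sets of all genes is not given here. In zymogenic cells they were 1.14 for Idi1, 2.20 for Acaca and 2.02 for Me1, and in neck cells 1.91 for Acaca. These 3 probe sets are under the level, with wild-type zymogenic intensities of 10.7, 8.67 and 14.6, where differences are loose. The second probe set of Fdft1, which reached the level, was at 0.44 and 0.03 in zymogenic and neck cells.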

How the results depend on the processing

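No paired analysis was possible because each group had 1 array. Of 84 arm medians and contrasts recomputed under 7 alternatives, 73 kept their sign and 11 did not. The fatty acid median for genotype in neck cells, just below 0, was 0.04 with quantile normalization, 0.05 with median centring and 0.17 (4 genes) when the higher of both values had to reach the median. Without a filter on low values the fatty acid median was 0.57 for cell type in MIST1-null and -0.23 in wild-type mice, and the arm contrast in wild-type mice was 0.05. With the 75th percentile filter, that fatty acid median in MIST1-null mice was 0.92 (2 genes), as it was with the mean over probe sets. The arm contrast for genotype in zymogenic cells was 0.26 with the 75th percentile filter and 0.05 with the mean over probe sets, and in neck cells -0.15 with the filter on the higher value. These settings differ in how many genes enter, and the cause was not tested.

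Counts of 2-fold genes were small; 14 of 56 changed, 12 of them by over 1.5 times. The other 2 were the genes lower in wild-type zymogenic against neck cells, 3 at first and 2 with the 75th percentile filter and with the pseudocount of 32. Genes lower in MIST1-null neck cells (1, Stard4) numbered 0 under quantile normalization, median centring, the 75th percentile filter and the pseudocount of 32. Genes higher in wild-type zymogenic against neck cells (1, Scd2) numbered 0 under median centring and the pseudocount. In MIST1-null mice, 2 were higher without a filter, and the lower genes numbered 1 with the 75th percentile filter, 1 with the pseudocount and 0 with the mean over probe sets. Genes higher in MIST1-null zymogenic cells numbered 3 without a filter and 2 with the filter on the higher value. Of 224 recomputed differences of single named genes, 6 changed sign: Acaca for genotype in neck cells (0.04 with quantile normalization, 0.05 with median centring, 0.95 with the mean over probe sets), and, with the mean over probe sets, Fdft1 (0.02) and Idi1 (0.17) for genotype in zymogenic cells and Idi1 in neck cells (-0.30). Of the 36 that had reached 2-fold, 0 changed sign, but some fell under 2-fold. For cell type in MIST1-null mice, Fdft1 (-0.85) and Idi1 (-0.91) did so with the mean over probe sets, and Idi1 (-0.73) with the pseudocount. In wild-type mice, Stard4 (-0.87) and Scd2 (0.75) did so with the pseudocount, and Scd2 (0.98) with median centring. Stard4 for genotype in neck cells was -0.94 with quantile normalization, -0.95 with median centring and -0.65 with the pseudocount. Of all 224, 5 moved by over 1.5 times: Sqle for genotype in zymogenic cells (1.33 with the pseudocount), Idi1 (0.17 for genotype in zymogenic cells, -1.38 for cell type in wild-type mice) and Acaca (1.16 and 0.95 for genotype in zymogenic and neck cells), the last 4 with the mean over probe sets. Signal over background is not known, so dim genes are the least certain.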
